A study of Mus musculus with 4 samples.

Results

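Small RNA genes under DDX5 peaks were described in enhanced crosslinking and immunoprecipitation (eCLIP) data from cultured mouse Th17 cells, a helper T cell type that secretes interleukin-17. DDX5 is a DEAD-box RNA helicase, an enzyme that remodels RNA and RNA-protein complexes. A gene was chosen by annotation and by the presence of a peak. It had to be annotated in the peak list as a small nucleolar RNA (snoRNA), small Cajal body RNA (scaRNA) or small nuclear RNA (snRNA), and to overlap a peak on the same strand by at least 1 nt. This gave 45 genes with 57 of the 900 peaks in the list (6.33%). They were 37 snoRNAs with 47 peaks, 6 snRNAs with 7 peaks and 2 scaRNAs with 3 peaks. Because the peaks themselves chose the genes, all enrichment values below are descriptions and no test was made on them.

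The data came from 2 DDX5 immunoprecipitates (IP, anti-DDX5 antibody) and 2 inputs (no antibody), with replicate numbers 1 and 2 in each group. All 4 libraries were from wild type C57BL/6 females, whose naive CD4 T cells were held for 72 h with anti-CD3, anti-CD28, IL-6 and TGF-β. The sample labels give an age of 8 weeks, and the series design gives 2 mice of 8 to 10 weeks. Whether each replicate came from 1 mouse is not stated. For both replicates together each peak has a single log2 enrichment (IP over input) and a single −log10 p, which leaves the spread between replicates unknown. Read counts were not used here and the depth per library is unknown. A peak list gives no expression, so the cell type could not be checked by marker levels. Of 10 Th17 markers only Rora and Ahr had a peak, and 0 of 6 general T cell markers and 0 of 9 markers of other cells had one. Of all 21900 protein-coding genes in the RefSeq gene table, 1.81% were named by a peak. Counts of 0 in lists this short therefore carry no information on the cell type.

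Most snoRNAs belong to 1 of 2 families. Box C/D snoRNAs, named Snord, carry the short box C and box D motifs and guide 2′-O-methylation of ribosomal RNA by fibrillarin, and a few, such as U3 and U8, are needed for cleavage of the ribosomal RNA precursor instead. Box H/ACA snoRNAs, named Snora, guide pseudouridylation by dyskerin. The scaRNAs guide either of these modifications on snRNAs in Cajal bodies. In mammals most of these guides are cut out of introns of host genes, many of which encode ribosomal proteins and translation factors. The snRNAs form the core of the spliceosome, except U7, which acts in 3′ end formation of histone mRNA.

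Sequence of the reference build was held by the RefSeq tables used here for 3 members, in each case because another gene's promoter window or a microRNA hairpin overlaps it (RefSeq, GRCm38.p6, minus strand). For Rnu7 and Snord33 the sequences place the peak against a known part of the RNA. Positions are counted from 1 at the 5′ end of the small RNA. For Rnu7 (U7 snRNA), bases 28 to 57 are printed, which are 30 of the 31 bases of its peak, with the arms of the longest inverted repeat in capitals. For Snord33, bases 1 to 30 are printed, with box C in capitals. For Gm22710, an snRNA gene with no family name in the files, bases 1 to 50 are printed, with no capitals.
Rnu7, chr6:124741230-124741259: ctagcaGGTTTTCtgacttcggtcgGAAAA
Snord33, chr7:45126918-45126947: gcagcuuGUGAUGAgacaucucccacucau
Gm22710, chr1:118459216-118459265: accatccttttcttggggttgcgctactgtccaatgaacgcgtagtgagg

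The U7 peak covered the 3′ hairpin and left the 5′ end free. The inverted repeat had arms of 7 bases at positions 34 to 40 and 53 to 59, so the peak, at 27 to 57, held all but the last 2 bases of it. The motif TTTGTCTAG, part of the site where U7 binds its ring of Sm and Lsm proteins, was at positions 23 to 31, and the peak began inside it. This motif occurred on either strand in 0.222% of 32851 RefSeq promoter windows, which run from 250 bases before to 50 after a gene's start. The first 26 bases, which include the part that pairs with histone pre-mRNA, were outside the peak. In Snord33 the peak ran from position 17 to 75 of 84 and began downstream of box C (GUGAUGA, positions 8 to 14). The core letters UGAUGA were found on either strand in 1.49% of 1005 windows of 30 bases, taken from the start of each RefSeq microRNA hairpin. The same stretch is annotated as mature miR-5121, at positions 3 to 23 of Snord33, so reads of these RNAs cannot be told apart by position. The printed bases of Gm22710 lay wholly outside its peak, at positions 80 to 100 of 125. Human U4atac, an RNA of the minor spliceosome, is encoded opposite to CLASP1, and Gm22710 lies within the span of mouse Clasp1.

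The small RNA peaks were low in enrichment within the list. Their median log2 enrichment was 3.77 (13.7-fold), with quartiles of 3.31 and 4.29, against 5.31 over all 900 peaks and 5.38 over the 843 others. Of the 57 peaks, 22 (38.6%) had a log2 enrichment of at least 4, a level met by 88.6% of all peaks in the list. Only 2 exceeded the median of all peaks, those of Rnu3b4 and Gm22009. The −log10 p was not low in the same way, with a median of 21.3 against 12.3 over all peaks, and 38 of 57 peaks lay above the latter. The −log10 p values stop at 400. This ceiling was reached by 5 of 57 small RNA peaks (8.77%), 4 in Rnu3a and 1 in Snord17, and by 8% of all peaks. Read levels in the input, against which the fold is taken, were not used here.

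**Figure D1:**
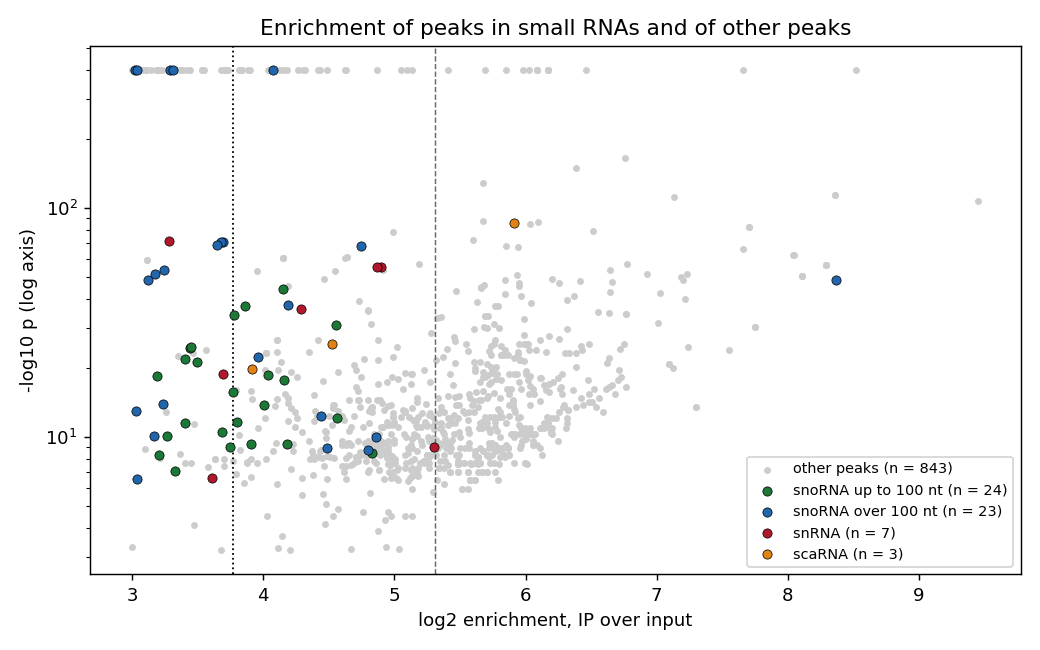
Log2 enrichment of IP over input (x axis) against −log10 p (y axis, log scale) for every peak of the list, with small RNA peaks coloured by class and other peaks in grey. The dotted line is the median of the 57 small RNA peaks (3.77) and the dashed line that of all 900 peaks (5.31). The blue point at 8.37 is Rnu3b4.

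The values of the list start at a log2 enrichment of 3.003, and the lowest small RNA peak stood at 3.02 (Rnu3a). The lowest −log10 p among small RNA peaks was 6.56 (Snora23), against 3.20 in the list. Every one of the 57 peaks had at least 79.5% of its length inside the small RNA and 40 lay wholly inside. No further peak of the list came within 500 nt of any of these genes on the same strand. The authors' annotation named the small RNA itself for 20 of the 57 peaks and only an overlapping gene for the rest. Of the 45 genes, 38 had 1 peak, 4 had 2, Snora74a had 3, and Rnu3a and Snord118 had 4 each. Joined where they touch, the 57 peaks formed 49 sites, and 4 genes had 2 sites.

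**Figure D2:**
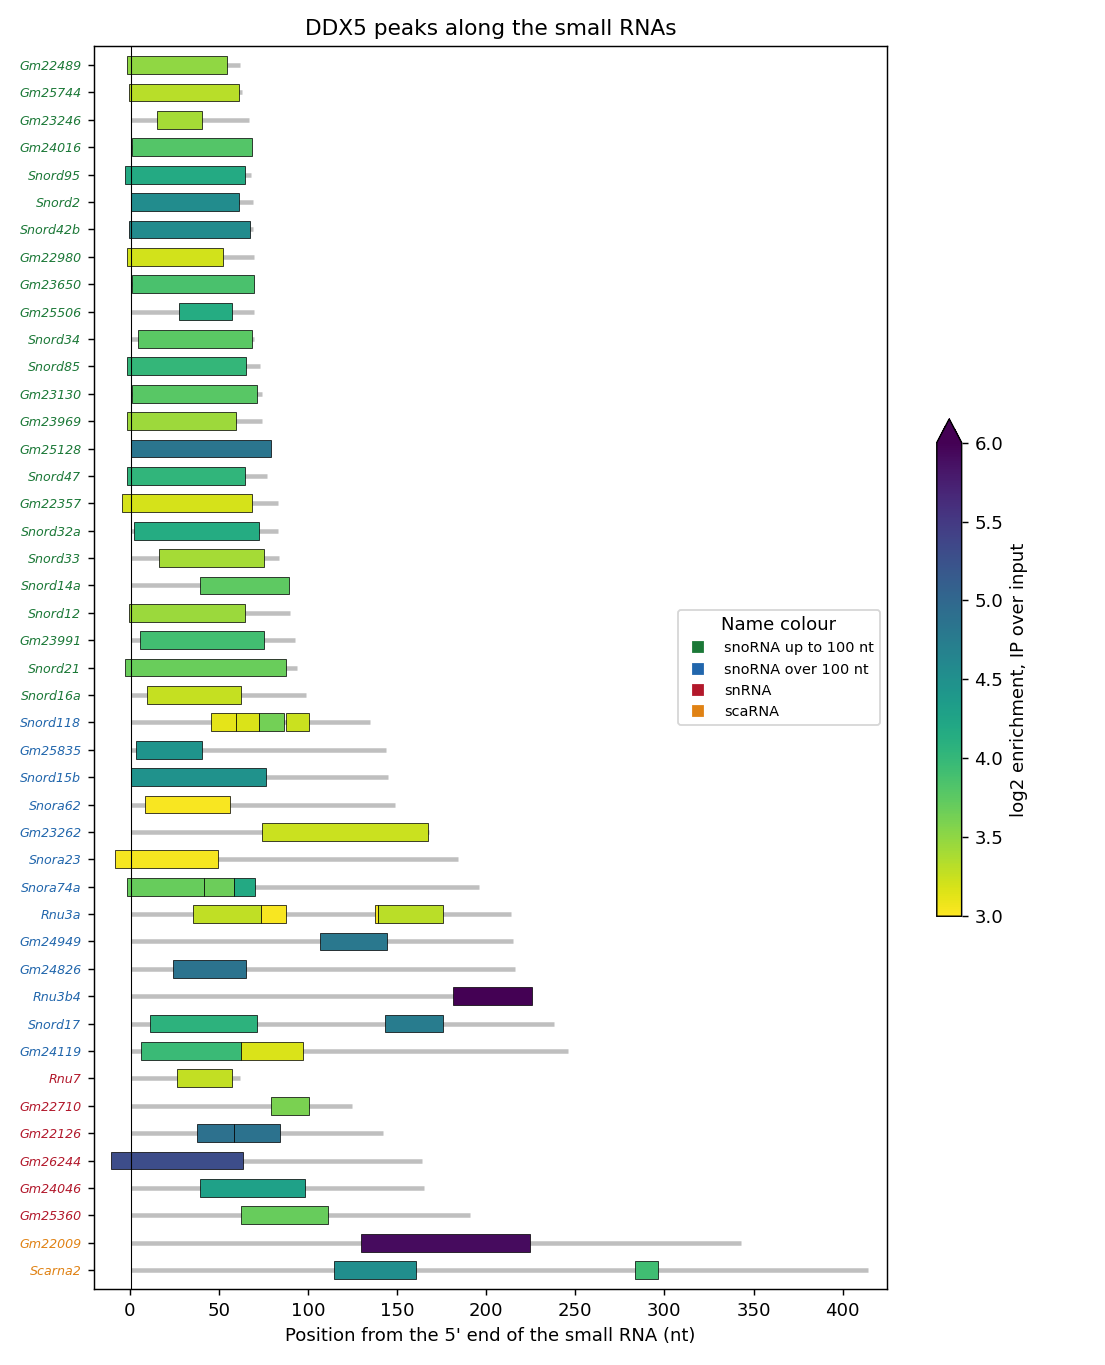
Each of the 45 small RNAs is drawn as a grey line from its 5′ end (position in nt on the x axis), with each DDX5 peak as a box coloured by log2 enrichment (the darkest colour stands for all values above 6). Names are coloured by class, and snoRNAs are divided at 100 nt. Peaks span most of the short snoRNAs and only a part of the longer RNAs.

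Of the snoRNAs that process the ribosomal RNA precursor, Rnu3a and Snord118 had several small peaks of low enrichment. Rnu3a (U3, chr10:40258467-40258680, plus strand, an independent gene) had 4 peaks in 2 sites of its 214 nt. In the 5′ site, the peak at positions 36 to 73 had a log2 enrichment of 3.29 and the adjoining one at 74 to 87 had 3.02. In the 3′ site, a peak of 2 nt at 138 to 139 had 3.04 and the peak at 140 to 175 had 3.31. The 50 nt between the sites carried no peak, and all 4 peaks stood at the −log10 p ceiling. Snord118 (U8, chr11:69073427-69073561, plus strand, also independent), needed for 5.8S and 28S rRNA, had 4 peaks of 13 or 14 nt that together ran from position 46 to 100 of 135, with a single free base at 87. Their log2 enrichments from 5′ to 3′ were 3.12, 3.17, 3.64 and 3.24. The ends of U8 were thus free of peaks on both sides.

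A second U3 copy stood far apart from the rest. Rnu3b4 (chr11:87462286-87462501, plus strand), deep in an intron of Tex14, had 1 peak with a log2 enrichment of 8.37 (330.3-fold) and a −log10 p of 48.5. It ranked 3 among the 900 peaks. This peak lay at the 3′ end of the RNA, from position 182 to 9 nt past the annotated end, where Rnu3a had none. The Tex14 span also holds Rnu3b1, Rnu3b2 and Rnu3b3, which had no peak. The deposited settings switch off a separate mapping to repeats, and which of the near-identical U3 copies a read came from is uncertain. Without Rnu3b4, the median of the remaining 56 peaks was 3.76. Gm24826 (216 nt, 4.86) and Gm24949 (215 nt, 4.80), which the files name no further, are close to U3 in length and were independent genes with 1 peak each. Their peaks lay at positions 25 to 65 and 107 to 144, with −log10 p values of 9.99 and 8.75.

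The peaks of most short snoRNAs spanned most of the RNA. The division at 100 nt was made after the lengths and peaks were seen. There were 24 such snoRNAs of 62 to 99 nt, 12 with a Snord name and 12 with no family name in the files, and each had 1 peak. The peak covered a median of 85.7% of the RNA (37.3% to 100%) and at least 80% in 15 of 24. These peaks had a median width of 65.5 nt, beside 65 nt over all 900 peaks, and the RNAs a median length of 73.5 nt. A peak of the usual width in the list therefore covers most of so short an RNA, and the coverage is no trait of these peaks alone. The peak on each short snoRNA was also compared with the ends of the RNA. It began at a median position of 1, within 5 nt of the annotated 5′ end in 19 of 24 and upstream of it in 11. At the other end it left a median of 8 nt free. In 17 of 24 more RNA was free on the 3′ side than on the 5′ side, in 6 the reverse held and in Gm23650 both were equal. By the RefSeq models the 3′ side was also the freer one in 17 of 24, with medians of 1 for the first position and 7.50 nt free.

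**Figure D3:**
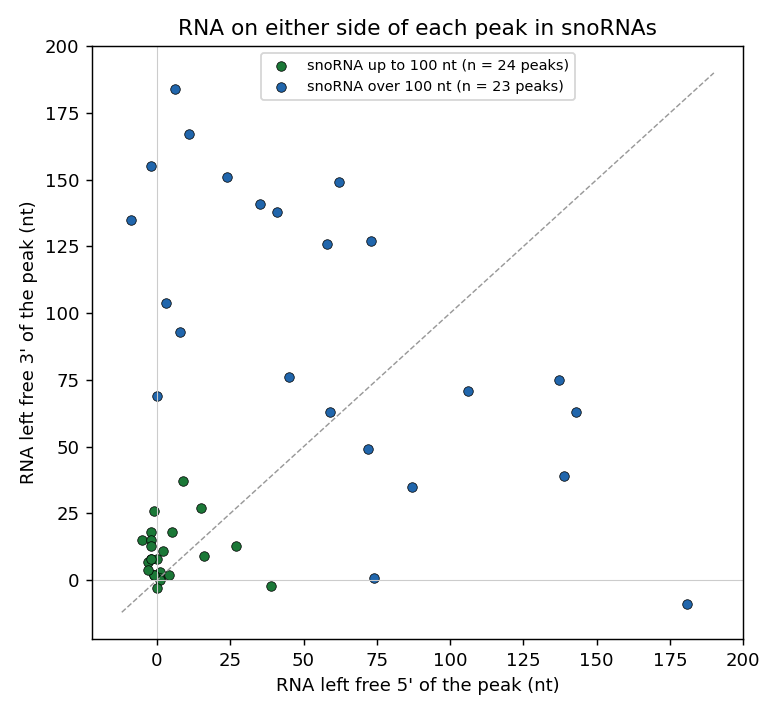
Length of RNA left free on the 5′ side (x axis, nt) and on the 3′ side (y axis, nt) of each peak, for snoRNAs of up to 100 nt (24 peaks) and over 100 nt (23 peaks). Values below 0 mean that the peak runs past that end, and points above the dashed line have more free RNA on the 3′ side. Short snoRNAs crowd at the origin, and 17 of their 24 points are above the line.

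Among the named short box C/D snoRNAs, log2 enrichment ran from 3.26 to 4.56. The highest were Snord42b in Rpl23a, with a log2 enrichment of 4.56 over 97.1% of the RNA, and Snord2 in Eif4a2, with 4.56 over 88.4%. Snord95 in Rack1 followed at 4.18, Snord32a in Rpl13a at 4.15, Snord47 in Gas5 at 4.04 and Snord85 at 4.01. Snord34 (3.77), Snord14a (3.75), Snord21 (3.69), Snord12 (3.45), Snord33 (3.40) and Snord16a (3.26) were lower. Snord14a (U14, in Rps13), which is required for 18S rRNA, was the exception in position. Its peak ran from position 40 of 87 to 2 nt past the 3′ end, and it alone of the 24 had its midpoint in the last of 3 equal parts. Snord33 and Snord16a were covered to 70.2% and 53.5%, the latter from position 10 to 62 of 99.

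The 12 short snoRNAs without a family name ranged from 3.19 to 4.83. The highest was Gm25128 in Ddx39b, a helicase gene of mRNA export, with a log2 enrichment of 4.83, a −log10 p of 8.54 and a peak of 79 nt that covered all 76 nt of the RNA. Gm25506 in Tnpo2 had 4.16 and Gm23991 in 2410002F23Rik 3.91, followed by Gm23650 in Nop56 (3.86), Gm24016 in Rps20 (3.80) and Gm23130 in Rps12 (3.78). The lower ones were Gm22489 in Gas5 (3.50), Gm23969 in Rpl7a (3.44), Gm23246 in Snhg1 (3.40), Gm25744 in 1110038B12Rik (3.32) and Gm22980 (3.20). Gm22357 in Gas5 was the third lowest of all 45 genes at 3.19, with a peak from 5 nt upstream of its 5′ end to position 68 of 83. Only Gm23246 and Gm25506 were covered by less than 50%, with peaks of 25 and 30 nt inside the RNA.

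The longer snoRNAs had peaks over a part of the RNA, more often towards the 5′ end than the 3′ end. The 13 genes of 135 to 246 nt had 23 peaks, each covering a median of 16.8% of the RNA. Of these 23, 6 began within 10 nt of the annotated 5′ end, and the median first position was 59. The midpoint lay in the first of 3 equal parts in 12 of 23 and in the last in 5. Adjoining peaks of 1 RNA, as in Snora74a and Gm24119, are counted singly here. The 3 named box H/ACA snoRNAs had all of their 5 peaks in the first part. Snora62 (E2, in Rpsa) had a log2 enrichment of 3.03 at positions 9 to 56 of 149, and Snora23 in Ipo7 had 3.04 from 9 nt upstream to position 49 of 184. Snora74a (U19, in Snhg4) had 3 adjoining peaks of 3.69, 3.67 and 4.19 that ended at position 70 of 196, and their −log10 p values were 71.2, 70.8 and 37.5. Box H/ACA snoRNAs consist of 2 hairpins, and where these lie in the 3 RNAs was not examined. Gm25835 in Eif4a1 (4.44, positions 4 to 40 of 144) and Snord15b in Rps3 (4.48, positions 1 to 76 of 145) also had their peak at the 5′ end. Gm23262 in Eif4g2 (3.24) was different, with a peak of 93 nt from position 75 to 167 of 168.

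Snord17 and Gm24119 were the longest of these RNAs and had 2 peaks each. Snord17 (chr2:144265979-144266216, minus strand, deep in an intron of Snx5) had a peak at positions 12 to 71 with a log2 enrichment of 4.07 and a −log10 p at the ceiling. A further peak, separated by 72 nt, lay at positions 144 to 175 and had 4.75 and 68.0. Snord17 thus had the higher enrichment at the site with the lower −log10 p. In Gm24119 (chr10:91118291-91118536, minus strand, in Slc25a3) the peak at positions 7 to 62 of 246 had 3.96, and the adjoining one at 63 to 97 had 3.17. Gm24119 had no peak beyond position 97.

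The 3 peaks of the 2 scaRNAs had a median log2 enrichment of 4.53, beside 3.77 for all small RNA peaks. Gm22009, a scaRNA gene of 343 nt in an intron of Kpna4 (chr3:69085105-69085447, minus strand), had 1 peak of 95 nt in its middle, at positions 130 to 224. Its log2 enrichment was 5.91 (60.2-fold) with a −log10 p of 86.1. Scarna2, a guide for U2 snRNA and an independent gene (chr3:108554338-108554751, minus strand), had peaks at positions 115 to 160 (4.53, −log10 p 25.4) and 284 to 296 (3.92, −log10 p 19.7) of 414. The 123 nt between them carried no peak.

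The 6 snRNA genes differed in enrichment and in where the peak lay. Rnu7 (chr6:124741225-124741286, minus strand) was the lowest, with a log2 enrichment of 3.28 at a −log10 p of 71.5. It lies in a 5′ UTR of Grcc10 and in an intron of Gm45234 in the deposited annotation, while by RefSeq it is 156 nt upstream of the Grcc10 start. Gm22710 had 3.61 and, at 6.60, the second lowest −log10 p of all 57 peaks, in an exon of the noncoding RNA 2900060B14Rik. Gm25360 (191 nt, independent) had 3.70 at positions 63 to 111, and Gm24046 (165 nt, in the pseudogene Aqp10-ps) had 4.29 at positions 40 to 98. Gm22126 (142 nt, deep in Cdyl), a pseudogene by RefSeq, had adjoining peaks of 4.90 and 4.87 at positions 38 to 84. Gm26244 (164 nt, deep in Rock1) had the highest value at 5.30, with a −log10 p of 9.05 and a peak from 11 nt upstream to position 63. Its peak was the only one of the 7 that passed an end of the RNA. No gene with the symbol of a major spliceosomal snRNA was among the 6, and the copies of such RNAs cannot be named from the files.

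Most of the small RNAs lay inside protein-coding genes, and ribosomal protein genes were the most frequent kind named. By the RefSeq class of the host, 29 small RNAs lay in protein-coding genes, 8 in long noncoding RNAs, 1 in a pseudogene and 1 in Gm45234, which the RefSeq table does not hold, and 6 had no host. Ribosomal protein genes hosted 13 members in 11 genes, and the translation factor genes Eif4a1, Eif4a2 and Eif4g2 hosted 1 each. Hosts of all annotated small RNA genes were not counted, so these numbers do not set the members apart from the rest. Noncoding hosts were Gas5 with 3 members, and Snhg1, Snhg4, Zfas1, 1110038B12Rik and 2900060B14Rik with 1. Of all 45, 38 lay in an intron, and the 24 short snoRNAs had a median distance of 77 nt from their 3′ end to the 3′ splice site, with 16 of 24 between 50 and 100 nt. The exceptions included Gm25128 in Ddx39b, at 1700 nt. For 18 of the 45 some transcript of a host holds the small RNA in an exon. There reads of that transcript cannot be told apart from those of the mature small RNA. For members in an intron, the same holds for reads of the unspliced host transcript.

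Hosts were taken from the members, so each had at least 1 small RNA under a peak by the choice itself, and the counts within hosts are a description. In 23 hosts the RefSeq span held more than 1 small RNA gene on either strand, 88 in all. Of these 88, 27 were under 1 of the 57 small RNA peaks, and the other 843 peaks were not compared with them. Gas5 had peaks in 3 of 8 and Rpl13a in 3 of 4, with only Snord35a free, while the other 21 hosts had 1 each. Snhg1 had a peak in 1 of 8, Nop56, Eif4a2 and Rpl4 in 1 of 5, and Rpl7a in 1 of 4. In Rps3 the peak was in Snord15b and not in Snord15a, in Rpl23a in Snord42b and not in Snord42a or Snord4a, and in 1110038B12Rik in Gm25744 and not in Snord52. In none of these 23 hosts were all small RNA genes under 1 of the 57 peaks. A gene without a peak in the list may still be bound.

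**Figure D4:**
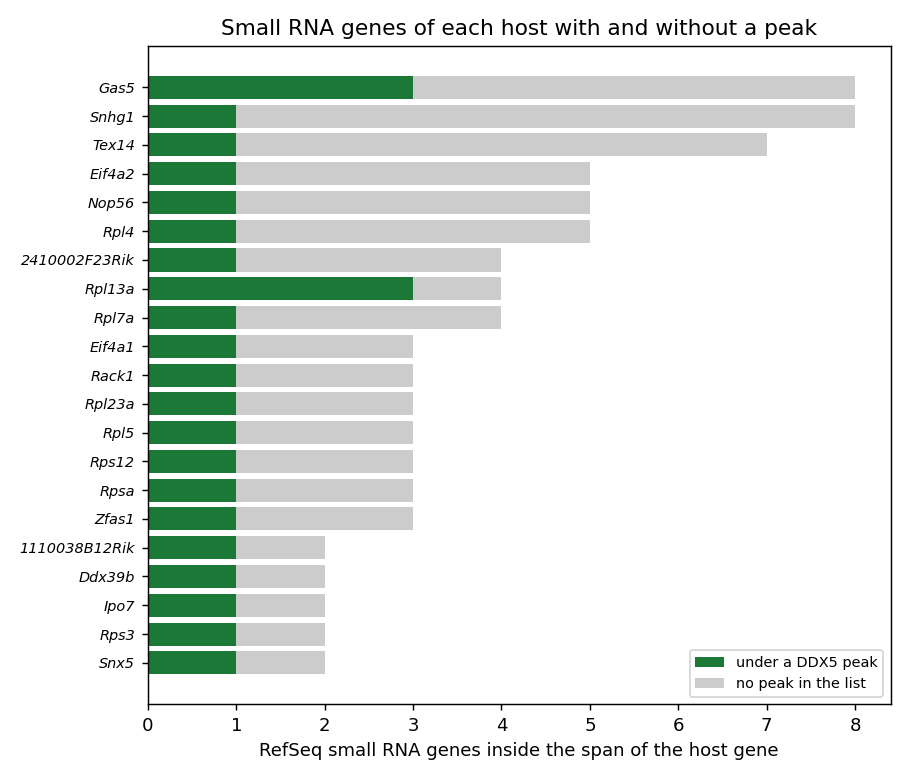
Number of RefSeq small RNA genes inside the span of 21 of the 23 hosts with more than 1 such gene (x axis). They are divided into those under 1 of the 57 small RNA peaks and those under none of these 57. Gas5 and Rpl13a have 3 genes under a peak, and the 19 other hosts drawn have 1.

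Of 35 hosts, 6 also had a peak outside the small RNA. Of all 21900 protein-coding genes in the RefSeq table, 1.81% were named by any peak. These shares are not of like kind. Hosts were chosen through a peak, include noncoding genes, and had outside peaks counted by any same-strand transcript annotated for the peak. The 29 other hosts had no outside peak, among them Gas5, Rpl13a, Snhg1 and Nop56. The 6 were Ddx39b, Eif4a1, Eif4g2, Rack1, Rpl4 and Rpl7a. In all 6 the highest outside peak exceeded the highest small RNA peak, with medians of 4.98 and 3.81. Over the whole list the 843 peaks outside small RNAs also stood higher, with a median of 5.38 against 3.77. Eif4a1 had 3 outside peaks of 5.74 to 6.00 in proximal introns, against 4.44 in Gm25835. Eif4g2 had 2 of 5.49 and 5.70 against 3.24 in Gm23262. Rpl4 had 3 coding exon peaks of 4.49 to 4.82 against 3.26 in Snord16a. The gap was smallest in Ddx39b, at 5.13 against 4.83, and Rpl7a had 4.13 against 3.44. Rack1 had 2 outside peaks of 4.07 and 4.65, of which the former was below the 4.18 of Snord95.

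By symbol, 15 of 94 RefSeq Snord genes were under a peak (16.0%, exact Clopper-Pearson 95% interval 9.22 to 24.95) and 3 of 39 Snora genes (7.69%, 1.62 to 20.9). The intervals overlap and cover counting error only. They leave out snoRNAs without a family name. Of 9 Scarna genes only Scarna2 had a peak (11.1%, 0.281 to 48.2), and of 5 U3 genes Rnu3a and Rnu3b4 had one. Both peaks of Scarna2 lay outside its RefSeq span, so its count rests on the longer span of the deposited annotation.

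Genes for the proteins that work with these RNAs were listed in 7 groups. Of the 59 genes, 2 had a peak, a count near that given by the 1.81% of all protein-coding genes. They were Nop56, of the box C/D core, whose only peak was the one in its snoRNA Gm23650, and Snrnp70, the U1-specific snRNP protein, with a highest log2 enrichment of 5.33. The other 3 box C/D core genes, Fbl, Nop58 and Snu13, had none. No peak was named for the 4 box H/ACA core genes, 11 assembly factors, 9 Cajal body and SMN complex genes, 15 U3 and U8 processing genes or 4 genes of U7 and histone 3′ ends.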

How the data were processed

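DDX5 eCLIP of cultured mouse Th17 cells comprised 2 IP and 2 input libraries, grouped by their titles. Per the submitters' processing notes, cutadapt 1.9.1, STAR 2.4.0i, SAMtools 1.4.1 and build mm10 were used. The deposited settings pair each IP with an input and set minimum values of 3 for log2 fold and −log10 p. The deposited list is of peaks reproducible by the irreproducible discovery rate (IDR), by its title. For the peak caller, annotation release and IDR threshold, nothing is stated in the sources. Both measurements, log2 fold enrichment and −log10 p, are the authors' own values for a peak, as the file headers name them.

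Peak and transcript starts in the files count from 0; printed coordinates count from 1. Where a symbol had several transcripts, the longest was used. Hosts and introns came from the same annotation column, with the shortest intron that contains the RNA. RefSeq tables (GRCm38.p6) gave 33 members by symbol and 11 more by position, and the sequences. Computation used Python 3.11.15, pandas 2.3.3 and scipy 1.17.1, and the overlap step was tested on simulated data. No test between groups was possible, and the alternatives are described in the closing section. The members and lists were chosen with earlier results of these data known. The hosts of 2 members are not reported here. All members are named, and the rule gave own sentences to those with 2 or more peaks, the 10 highest, the 3 lowest, all scaRNAs and snRNAs and those at the ceiling.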

Additional observations from a re-analysis of the deposited data

How the results depend on the processing

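The counts of 57 peaks and 45 genes were the same when at least 50% of the peak had to lie inside the small RNA and when either strand was allowed. An overlap of at least 10 nt left 56 peaks and 45 genes, and a −log10 p of at least 10 left 45 peaks and 33 genes. A log2 enrichment of at least 4 left 22 peaks in 20 genes. The median log2 enrichment lay between 3.70 and 3.86 when taken as the highest or mean value per gene, with 50% of the peak inside, or at a −log10 p of at least 10. Without Rnu3b4, an alternative chosen after seeing the data, it was 3.76. Peaks with the midpoint in the first of 3 equal parts of the RNA made up 24.6%, 27.8% by RefSeq coordinates and 22.4% with touching peaks joined, but 68.4% when the 5′ end of the peak was used. The median coverage of short snoRNAs was 86.8% by RefSeq coordinates. No paired analysis was possible because the deposited list holds 1 value for both replicates, and for the same reason no replicate could be left out.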

Other observations

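The annotation used for the peak list and the RefSeq models differed for part of the members, and 27 of the 44 with a RefSeq entry had the same span in both. Scarna2 differed most, with 414 nt in the deposited annotation and 61 nt by RefSeq. Both of its peaks lay outside the RefSeq span. Snord12 was 90 nt in the deposited annotation and 66 nt by RefSeq, Snord42b was 69 and 55 nt, and Snora62 was 149 and 130 nt. Rnu3a and Rnu3b4 are snoRNAs in the deposited annotation and snRNAs by RefSeq.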
